A study of Mus musculus with 6 samples.

Results

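Actb and Tuba1b are the 2 cytoskeletal genes among the 15 genes that the array names by accession, out of 60915 probes in all. They were taken by accession, NM_007393.3 for Actb (beta-actin) and NM_011654.2 for Tuba1b (tubulin alpha-1B), and each had 20 spots on every array. RNA was measured on 6 single-colour Agilent arrays. The 3 control arrays hold RNA of sham mice. The other 3 hold RNA taken 12 h after blood flow was restored in mice whose middle cerebral artery had been blocked for a time (tMCAO), a model of ischemic stroke. All mice were male and 8 weeks old. The protocol names the ischemic cortex of each mouse as the tissue. The strain, the length of the occlusion and the region sampled in sham mice are not given in the sources used here, and the labels speak of 3 independent experiments per group. Before labelling, ribosomal RNA was depleted, and random primers were used so that the label covers transcripts over their full length.

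Beta-actin is the main nonmuscle actin. Its monomers polymerize into the filaments that shape dendritic spines, growth cones and the processes of glia, and the filaments turn over by addition at one end and loss at the other. Tubulin alpha-1B pairs with a beta-tubulin to form the dimer from which microtubules are built, the tracks of axonal and dendritic transport. Both genes are widely used as reference genes against which other transcripts are expressed. Actb has a close relative in Actg1 (gamma-actin), and Tuba1b in Tuba1a and Tuba1c. The probe sequences were not used here, so signal shared between such relatives was not assessed.

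After tMCAO both genes lay slightly below sham on average, and neither passed the test. The mean level of Actb was 1.12-fold lower and that of Tuba1b 1.15-fold lower. The 2 genes differed in how the arrays were spread. With signals scaled to each array's 75th percentile, Tuba1b was nearly constant among sham mice and lower on all 3 tMCAO arrays. On tMCAO replicate 2 it lay only 0.02 log2 units below the lowest sham array. Lack of overlap in this direction held for 13.1% of all tested probes. Actb lay below every sham array on tMCAO replicates 1 and 2, and on replicate 3 only 0.01 log2 units above the highest. Neither pattern held under every scaling tried. A level below is the log2 processed signal minus the log2 of the array's 75th percentile over the spots that are not controls. Levels were compared for the same gene between arrays, not between genes.

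In sham the Actb level was 3.74, 3.96 and 3.74, in the order of the replicate numbers. After tMCAO it was 3.35, 3.63 and 3.97. tMCAO replicates 1 and 2 lay below every sham array, and tMCAO replicate 3 lay above the sham arrays, only 0.01 log2 units from sham replicate 2. The groups therefore overlapped. The level averaged 3.81 ± 0.13 over the sham arrays and 3.65 ± 0.31 over the tMCAO arrays (SD, n = 3 each). The difference, tMCAO minus sham, was -0.16 ± 0.17 log2 units (SE), with a 95% interval from -0.55 to 0.23 (limma, a linear model that shares variance between probes, adjusted p = 0.623 by Benjamini-Hochberg over all tested probes). Relative to the sham mean, Actb was 1.38-fold lower on tMCAO replicate 1, 1.14-fold lower on replicate 2 and 1.12-fold higher on replicate 3. The SD among tMCAO arrays exceeded that of 82.2% of the tested probes, while the SD among sham arrays exceeded that of 49.9%.

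The Tuba1b level was 8.42, 8.41 and 8.39 on the sham arrays and 8.01, 8.37 and 8.22 on tMCAO replicates 1, 2 and 3. Each tMCAO array lay below each sham array, but tMCAO replicate 2 only by 0.02 log2 units. Lack of overlap with tMCAO lower held for 13.1% of all tested probes, so it is not unusual in these data. The level averaged 8.41 ± 0.02 over the sham arrays and 8.20 ± 0.18 over the tMCAO arrays (SD, n = 3 each). tMCAO minus sham came to -0.21 ± 0.12 log2 units (SE), with a 95% interval from -0.49 to 0.08 (limma, adjusted p = 0.397). Relative to the sham mean, Tuba1b was 1.31-fold lower on tMCAO replicate 1 and 1.03-fold lower on replicate 2, and replicate 3 lay 0.19 log2 units below. The sham SD was smaller than that of nearly all tested probes, since 1.82% had a smaller one. Most other probes have a single spot, so their SD also holds the variation between spots.

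**Figure D1:**
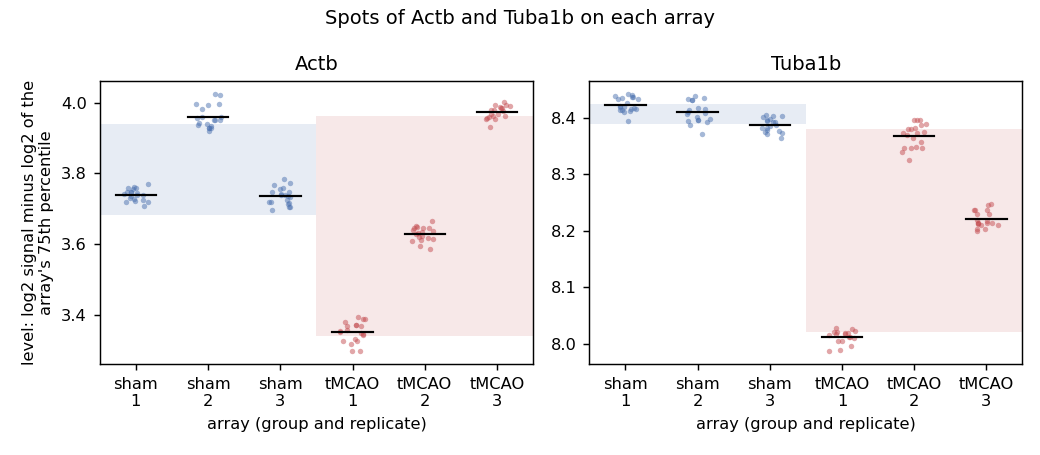
Levels of Actb (left) and Tuba1b (right) on the 6 arrays, as log2 signal minus the log2 of the array's 75th percentile (vertical axis, different ranges in the panels, neither starting at 0). Points are spots without an outlier mark, black bars are array means, and shaded bands are group means ± SD (n = 3 each). The spots of an array lie close together, and Actb on tMCAO replicate 3 (3.97) lies beside sham replicate 2 (3.96). The Tuba1b means of all tMCAO arrays lie below those of the sham arrays. That of tMCAO replicate 2 does so by only 0.02 log2 units, and its spots overlap those of sham.

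The tMCAO arrays differed by more than the spots of one array did, and so did the sham arrays for Actb. For Tuba1b the SD of the sham arrays, 0.02 log2 units, was like that of single spots. It still exceeded the SE of an array's mean over its Tuba1b spots, which was at most 0.005. The SD over the spots of an array was 0.02 to 0.03 log2 units for Actb and 0.01 to 0.02 for Tuba1b, whereas the tMCAO arrays spanned 0.62 and 0.36 log2 units. The sham arrays spanned 0.22 log2 units for Actb and 0.04 for Tuba1b. The spots of a gene share 1 labelled RNA and are not replicates of the condition. Of the 120 spots over the 6 arrays, 2 of Actb and 5 of Tuba1b carried an outlier mark and were left out. At the 18 spot positions with a value on all arrays, Actb on tMCAO replicates 1 and 2 was below every sham array at all 18. With all 3 tMCAO arrays, the groups were apart at 0 of these 18 positions for Actb and at 13 of 16 such positions for Tuba1b. All spots of both genes were well above background and 0 were saturated. The mean Actb signal was between 7423 and 11366 intensity units, that of Tuba1b between 160199 and 303545, and the median local background between 25 and 26.

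The limma test over all 44288 tested probes called 630 of them, or 1.42%, at an adjusted p under 0.05. Of Actb and Tuba1b, 0 of 2 were among them. At an unadjusted p under 0.05 the count was also 0 of 2, where 17.9% of the tested probes passed. The mean lay below sham for 57.8% of the tested probes, and the median difference over all of them was -0.05 log2 units. Actb lay further below sham than the median probe, but 32.9% of the probes lay lower still, and 26.2% lay lower than Tuba1b.

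**Figure D2:**
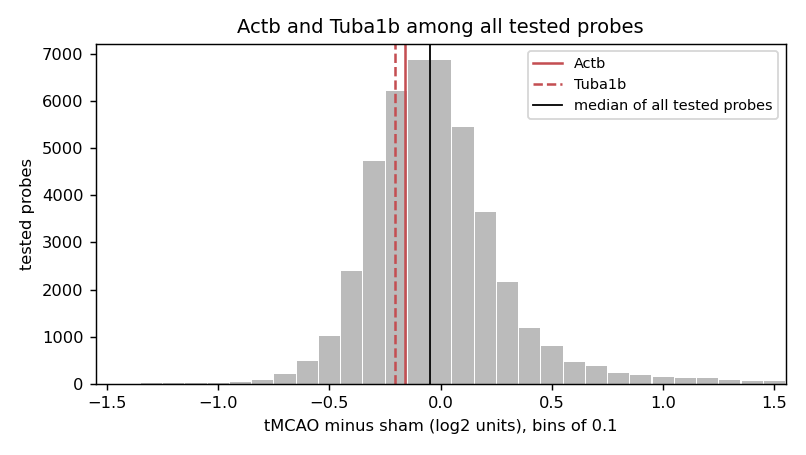
Histogram of the difference tMCAO minus sham (horizontal axis, log2 units) over the 44288 tested probes, counted in bins (vertical axis), with 209 probes beyond 1.5 log2 units on either side not drawn. The red lines mark Actb (-0.16) and Tuba1b (-0.21), which lie on the lower shoulder of the distribution near the median probe (-0.05, black).

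The arrays themselves differed, in part in ways that moved with the Actb level. In intensity units, the 75th percentile of the signal was 555.5, 605.9 and 705.5 in sham, and 934.6, 918.6 and 537.2 on tMCAO replicates 1, 2 and 3. The 3 arrays with the highest percentiles, tMCAO replicates 1 and 2 and sham replicate 3, had the 3 lowest Actb levels. Sham replicate 3 lay only just below sham replicate 1 (3.736 and 3.740). The dimmest array, tMCAO replicate 3, had the highest Actb level. Because the level subtracts the log2 of this percentile, such an inverse relation is in part built in. Before scaling, the log2 signal of Actb was 12.86, 13.20 and 13.20 in sham and 13.22, 13.47 and 13.04 in tMCAO. Its unscaled difference of 0.16 lay on the other side of 0, and the median probe stood at 0.27 on that scale. For Tuba1b the unscaled difference was 0.11. Relative to the median probe, the unscaled differences were -0.11 for Actb and -0.16 for Tuba1b. On the first principal component of all tested probes, tMCAO replicate 3 had a score of -3.2, against 44.6 and 55.9 for tMCAO replicates 1 and 2 and -37.1 to -23.1 for sham. The difference between the 3′ and 5′ control probes of mouse Gapdh was 0.72 and 0.78 log2 units on tMCAO replicates 1 and 2 and 1.01 on replicate 3, and 0.81 to 0.98 in sham. The same difference for mouse Pgk1 did not follow the Actb level, at 7.81, 8.04 and 8.19 in sham and 7.95, 8.45 and 8.03 on tMCAO replicates 1, 2 and 3. The part of these features in the Actb levels was not tested. Fewer cells of a type and less RNA per cell cannot be told apart in bulk tissue, and 0 of the 30 markers listed for neurons, glia, vessels and blood cells are named on the array.

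All 6 arrays were read in 1 scan and lay in 2 rows of one slide. Replicates 1 and 2 of both groups lay in the first row and both replicates 3 in the second. In the first row the tMCAO arrays took columns 1 and 2 and the sham arrays columns 3 and 4. In that row, group and side of the slide thus cannot be told apart. Within the first row, with 2 arrays per group, Actb differed by -0.36 log2 units, and within the second, with 1 array per group, by 0.24. The corresponding values for Tuba1b were -0.23 and -0.17. The sign of the Actb difference thus differed between the rows, and that of Tuba1b did not. With the row as a block the limma test gave adjusted p = 0.6 for Actb and 0.39 for Tuba1b.

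Ranks within the array do not depend on a scaling constant. Ordered from the brightest of the 60915 probes, Tuba1b held ranks 129, 157 and 150 on the sham arrays and 299, 253 and 273 on tMCAO replicates 1, 2 and 3. Every tMCAO rank was dimmer than every sham rank, and 14.0% of the tested probes shared this pattern. Actb held ranks 4194, 3905 and 4227 in sham and 5079, 4722 and 3877 in tMCAO. Here too the tMCAO arrays lay on both sides of sham.

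The authors' normalized log2 table, made by a method not stated, placed both genes lower than the percentile scaling did. In it Tuba1b averaged 17.92 ± 0.04 over the sham arrays and 17.54 ± 0.07 over the tMCAO arrays (SD, n = 3 each), a difference of -0.38 log2 units (limma, adjusted p = 0.112, the lowest in a range up to 0.927 over the alternatives). The tMCAO replicates were at 17.47, 17.60 and 17.55 and the sham replicates at 17.96, 17.89 and 17.90, so replicate 2 was no longer close to sham. Quantile normalization of the scanner values, which gives every array the same distribution of signals, put the difference at -0.32. Over the 6 scalings tried, the Tuba1b difference ran from -0.38 to -0.14, and the groups did not overlap in 4 of the scalings. All 6 scalings start from the same arrays and some are much alike, so the count is not separate support. Over all tested probes, lack of overlap with tMCAO lower was counted with the percentile scaling only (13.1%). The Tuba1b groups overlapped in the other scalings. These were median centring and normexp, a model-based background correction, where tMCAO replicate 2 (11.04 and 8.28) lay above the highest sham array (10.94 and 8.27). For Actb the authors' table had 13.25, 13.43 and 13.23 in sham and 12.73, 12.95 and 13.45 in tMCAO. The arrays stood in the same order as with the percentile scaling, the difference was -0.26, and over the 6 scalings it ran from -0.26 to -0.09. The order was not kept by median centring. There, Actb on tMCAO replicates 2 and 3 (6.30 and 6.42) lay within the sham range (6.23 to 6.49), and only replicate 1 (5.95) lay below it.

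Single arrays moved Actb more than Tuba1b. Without tMCAO replicate 3 the Actb difference was -0.32 ± 0.14 log2 units (SE; limma, adjusted p = 0.187), and without tMCAO replicate 1 it was -0.01 ± 0.15 (adjusted p = 0.981). It was -0.09 without sham replicate 2. For Tuba1b, leaving out 1 array at a time gave differences from -0.29 to -0.11, with the smallest without tMCAO replicate 1 (limma, adjusted p = 0.681).

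**Figure D3:**
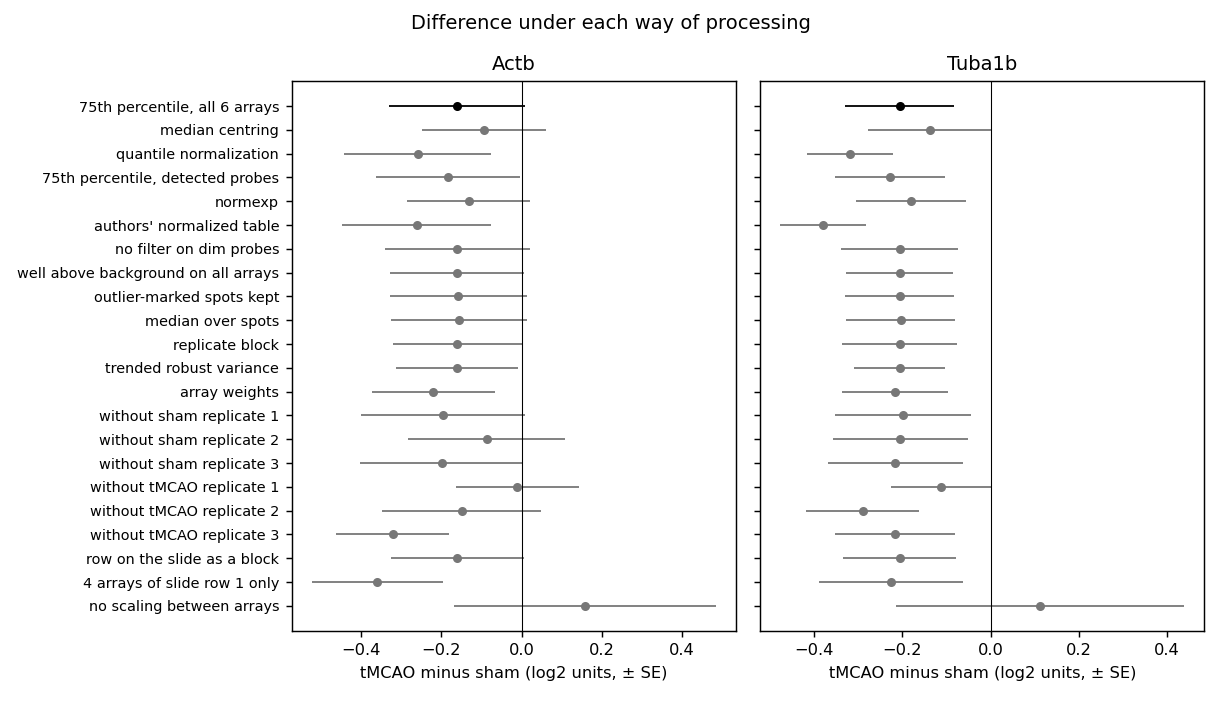
Difference tMCAO minus sham of Actb (left) and Tuba1b (right) in log2 units (horizontal axis), with the SE of limma as bars, under each way of processing (rows). The black point is the percentile scaling over all 6 arrays. The Actb difference runs from -0.36 with the arrays of the first slide row to 0.16 with no scaling, and the Tuba1b difference from -0.38 in the authors' table to 0.11 with no scaling.

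The 2 genes were then set against the other named genes, each with 20 spots too. Among the 15, Tuba1b had the lowest mean difference and Actb the third lowest, with Ldhal6b, a testis-type lactate dehydrogenase gene, between them at -0.20. Below sham lay 9 of the 15, close to the 57.8% of all tested probes with a mean below sham, and the median difference of the 15 was -0.03 log2 units. On tMCAO replicate 1, Actb and Tuba1b lay furthest below sham (-0.46 and -0.39). On tMCAO replicate 3, Actb lay 0.16 log2 units above sham and Tuba1b 0.19 below. The glycolytic gene Gapdh and the cyclophilin gene Ppia also lay below sham on tMCAO replicate 1, by -0.25 and -0.27, and near sham on replicates 2 and 3.

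**Figure D4:**
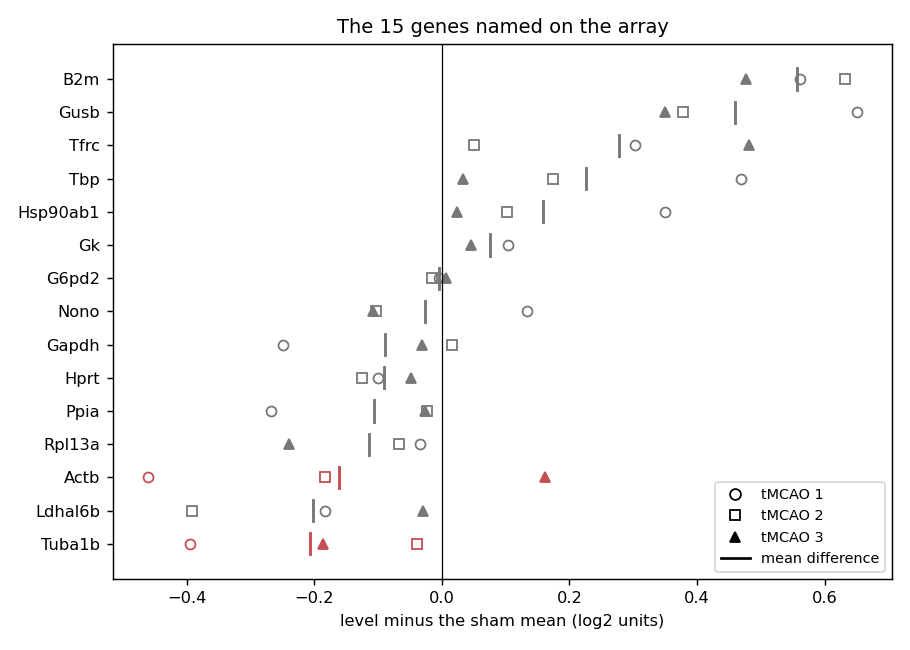
Level of each of the 15 named genes on each tMCAO array minus the gene's sham mean (horizontal axis, log2 units), with circles, squares and triangles for tMCAO replicates 1, 2 and 3 and vertical bars for the mean difference. Gk lacks a value on tMCAO replicate 2. Actb and Tuba1b (red) are lowest on tMCAO replicate 1, and Actb on tMCAO replicate 3 lies at 0.16, on the other side of sham.

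Ratios within an array need no scaling between arrays. The log2 ratio of Actb to Tuba1b, expressed relative to its sham mean, is shown in the plot of ratios within each array. It averaged -4.59 ± 0.13 over the sham arrays and -4.55 ± 0.26 over the tMCAO arrays (SD, n = 3 each), a difference of 0.05 log2 units (exact permutation p = 0.9, two-sided). The value of this ratio has no meaning as a comparison of abundance, because the probes differ. tMCAO replicates 1 and 2 lay within or just under the sham range (-4.66 and -4.74, against -4.68 to -4.45), while tMCAO replicate 3 lay above it (-4.25). Without tMCAO replicate 3 the difference was -0.11 log2 units (exact permutation p = 0.5), so its sign rested on that array.

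Tuba1b relative to the mean of 12 other named genes with a value on every array was 4.65, 4.63 and 4.60 in sham and 4.10, 4.54 and 4.37 in tMCAO. The groups did not overlap, and the difference was -0.29 log2 units (exact permutation p = 0.1, the smallest that 3 arrays against 3 allow, and 0.3 adjusted over 3 ratios). How many of all tested probes lack overlap relative to these genes was not counted. Actb relative to the same genes was -0.03, 0.18 and -0.05 in sham and -0.56, -0.20 and 0.12 in tMCAO. The groups overlapped through tMCAO replicate 3, and the difference was -0.25 log2 units (exact permutation p = 0.4, adjusted 0.6). The mean of the 12 genes was itself 0.09 log2 units above sham on the percentile scale, without overlap (exact permutation p = 0.1, the smallest possible). Lack of overlap with tMCAO higher held for 11.6% of all tested probes. A rise of this mean lowers every ratio to it. The mean includes B2m, the class I histocompatibility light chain, and the lysosomal enzyme gene Gusb, which lay 0.56 and 0.46 above.

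**Figure D5:**
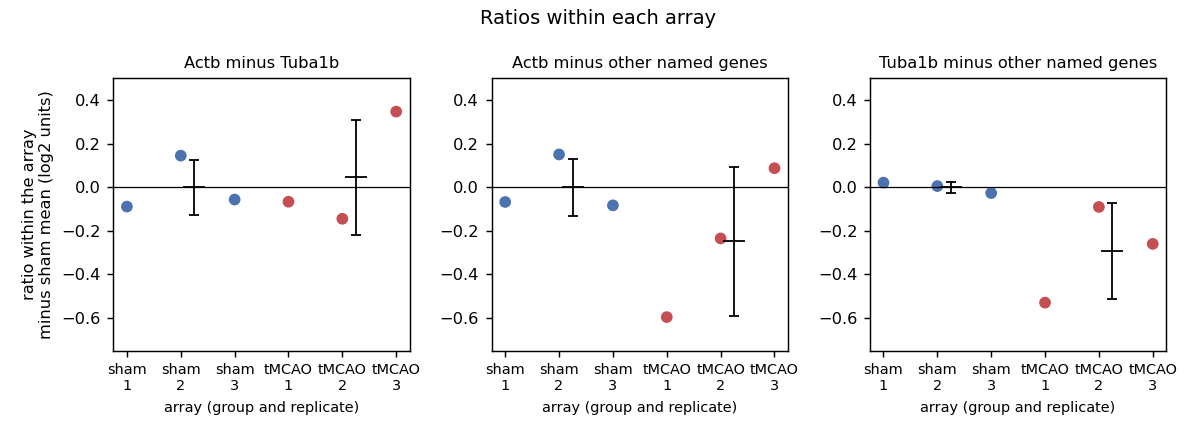
Log2 ratios within each array, minus their sham mean (vertical axis), for Actb against Tuba1b (left), Actb against the mean of 12 other named genes (middle) and Tuba1b against the same genes (right). Points are arrays, sham in blue and tMCAO in red, and bars are group means ± SD (n = 3 each). In the right panel all 3 tMCAO arrays lie below sham, in the left panel tMCAO replicate 3 lies above the other arrays, and in the middle panel the tMCAO arrays are spread from -0.56 to 0.12 before the sham mean of 0.03 is subtracted.

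Across the 6 arrays the levels of Actb and Tuba1b correlated at r = 0.593. The named genes with the pattern most like that of Tuba1b were Ppia (r = 0.916) and Gapdh (r = 0.893), and the same genes were nearest to Actb (r = 0.734 and 0.703). Among 43466 design-code probes, whose genes are not named here, ASMM10P000917 was nearest to Tuba1b (r = 0.999) and ASMM10P029890 to Actb (r = 0.996), followed by codes at r = 0.996 and 0.995. ASMM10P029890 was at -2.54, -2.15 and -2.56 in sham and -3.47, -2.75 and -2.05 in tMCAO, and thus shared the high value of tMCAO replicate 3. These coefficients describe 6 arrays that share groups and scaling, and the nearest of so many probes is close by selection.

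The other actins, tubulins and their partners could not be described by name. Of 11 genes of actins or actin-related proteins and 15 tubulin genes listed, only Actb and Tuba1b are named on the array. Of 25 genes of actin assembly and 22 of microtubule binding or tubulin folding, 0 are.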

How the data were processed

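The submitters' processing notes name Agilent Feature Extraction (version 11.0.1.1) for the scanner tables, which hold spot intensity on a linear scale, background-subtracted per the file headers and deposited without normalization between arrays. The authors also deposited a log2 normalized table, with its method not given in the sources used here. It correlated with the arrays' own log2 signals, and it served as an alternative. Outlier-marked spots were dropped, log2 signals were scaled to each array's 75th percentile over 61500 non-control spots, and the spots of a probe were averaged. The 15 negative probes (300 spots) were left out of the fit. Probes well above background on at least 3 of 6 arrays, with at least 2 values per group, were tested with limma 3.58.1 in R 4.3.3 (two-sided, Benjamini-Hochberg over 44288 probes, threshold 0.05). The test was checked on simulated data with equal spread in both groups and changes larger than those of Actb and Tuba1b. That check therefore does not bear on small changes or unequal spread. Accessions were matched without version to symbols in a RefSeq table of GRCm38.p6, whereas the array design is in mm9, so no coordinates are given. The scanner tables lack mean signals, so normexp (offset 50) used median signals. Slide and scan date could not be blocks, because all arrays share 1 scan. The named genes are Actb, Tuba1b and, for each, the named genes and design codes with the highest Pearson r, of which the second code is given without its name. The other named genes are given where the 15 are compared and beside ratios, and Ldhal6b and Gk were named after their values were seen. Members and lists were chosen with earlier results of these data known. The number of arrays limits the precision.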

Additional observations from a re-analysis of the deposited data

How the results depend on the processing

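Neither Actb nor Tuba1b passed the limma threshold under any of 21 alternatives. Both kept their direction in 20 and turned to 0.16 and 0.11 log2 units with no scaling between arrays, an alternative added after seeing the data, as were those that use slide rows. Without 1 array at a time, the Actb difference ran from -0.32 to -0.01 and the Tuba1b difference from -0.29 to -0.11. The ratio of Actb to Tuba1b turned to -0.13 in the first slide row and ran from -0.11 to 0.14 without 1 array at a time. The same fits gave -0.42 to -0.07 for Actb and -0.40 to -0.18 for Tuba1b relative to the other named genes. The number of called probes, 630, was 370 with normexp, 263 with no filter on dim probes, 388 with the replicate block, 124 in the first slide row, 1294 with no scaling (1281 higher and 13 lower, against 547 and 83) and 93 to 944 without 1 array at a time. The cause was not tested. With the replicate block, Actb had adjusted p = 0.603 and Tuba1b 0.417 (limma). Same-numbered arrays correlated at 0.02, 0.09 and 0.13 in their deviations from the group means, and not every array correlated best with its own number, so the numbers were not taken as pairs.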

Other observations

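Actb and Tuba1b are often used as the denominator for other transcripts, and the choice shifts every other gene by the same amount. Relative to Actb each mean difference is 0.16 log2 units higher than on the percentile scale, and relative to Tuba1b 0.21 higher, so the counts of means above sham restate the differences of these 2 genes. With the 75th percentile as the reference, 5 of 12 named genes had a mean above sham and 7 below, with a median difference of -0.02 log2 units. With Actb as the reference, 11 of 12 lay above sham (median 0.15 log2 units), and with Tuba1b 12 of 12 did (median 0.19). The groups did not overlap, with tMCAO higher, for 3 of the 12 with the percentile, 3 with Actb and 6 with Tuba1b. On the percentile scale 11.6% of all tested probes did not overlap in that direction. The share relative to Actb or Tuba1b was not counted, so the counts with these references have no like background. The chaperone gene Hsp90ab1, for example, differed by 0.16 log2 units on the percentile scale and by 0.37 relative to Tuba1b. Relative to Actb, Hsp90ab1 was 0.81 and 0.29 log2 units above sham on tMCAO replicates 1 and 2 and at -0.14 on tMCAO replicate 3. The groups that do not overlap depend in addition on how the denominator varies between arrays. These values share their denominator and were not tested.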
